A study of Mus musculus with 27 samples.

Results

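Osteoclast genes and RANK signalling are represented here by 10 mouse genes, taken by symbol from the 37095 gene symbols of a read-count table over 27 libraries. They are the ligand Tnfsf11 (RANKL), its receptor Tnfrsf11a (RANK), its decoy receptor Tnfrsf11b (osteoprotegerin), and the osteoclast genes Acp5, Ctsk, Ocstamp, Dcstamp, Calcr, Oscar and Atp6v0d2. All 10 symbols had a row in the table.

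Osteoclasts are the bone-resorbing cells of the monocyte and macrophage lineage. They form when precursors that carry RANK meet RANKL, which in bone is made largely by osteocytes and other cells of the osteoblast lineage, while osteoprotegerin is a secreted protein that binds RANKL and keeps it from RANK. Bound RANK signals through TRAF6, NF-κB and AP-1 to NFATc1, the transcription factor that switches on the genes for cell fusion and resorption.

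Skull, meninges and brain were taken from mice 24 h after UVB, 0.5 h after UVB, or without treatment (control), with 3 libraries in each of the 9 groups of tissue and time. The UVB (311 nm, 2 mW) was aimed at the interparietal bone, which lies at the back of the skullcap, and the same 3 treatments were given for each tissue. The labels give no strain, age or sex, do not say how control mice were handled, and do not say whether the 3 libraries of a group came from separate animals, so p-values measure the spread between these libraries, which may be technical. Meninges were scraped off the skullcap, and the skullcap was rinsed to remove blood.

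Total counts per library ran between 15960329 and 17838731 in skull, between 14961038 and 18174269 in meninges and between 14208961 and 27305294 in brain. Levels are given as CPM, the counts scaled to a common library size. A list of 10 osteoclast markers, 7 of them among the genes described here, summed to between 3338 and 4567 CPM in skull, between 549 and 854 CPM in meninges and between 14.5 and 31.0 CPM in brain, and none of the 10 was at 0 in any skull or meninges library. Markers of osteoblasts and osteocytes (13 genes, including Bglap, Ibsp and Dmp1) summed to between 53111 and 97246 CPM in skull, between 14204 and 39768 CPM in meninges and between 55.4 and 136 CPM in brain, and none of the 13 was at 0 in any skull or meninges library. In skull, control replicate 3 was the highest of the 3 control libraries for all 10 genes, and 24 h replicate 3 was the highest of its group for 8 of 10.

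The ligand and the decoy receptor were the members that changed in skull. At 24 h after UVB, Tnfrsf11b was 2.24-fold as high as in control skull and Tnfsf11 was 0.536-fold, and at 0.5 h Tnfsf11 was already 0.469-fold. Tnfrsf11a and the 7 osteoclast genes did not pass the test at either time. A gene passed, or was called, when its adjusted p was under 0.05 in edgeR's quasi-likelihood test, with Benjamini-Hochberg adjustment over all genes tested in that comparison. Bulk tissue cannot tell fewer cells of a type from less RNA per cell. With so few libraries a group, the ranges of unchanged genes can also lie apart. The share of all genes whose ranges did so was not counted.

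Tnfsf11 lies on chromosome 14 (mm10, minus strand, 78277445 to 78308043) and encodes RANKL, a membrane-bound and shed cytokine of the TNF family. Its level in skull was 21.2, 18.9 and 27.8 CPM in the 24 h libraries, 19.7, 19.2 and 20.6 CPM in the 0.5 h libraries, and 36.0, 33.4 and 57.7 CPM in the control libraries. Every library taken after UVB lay below every control library, and control replicate 3 stood highest. The counts behind these levels were 309 to 456 reads per library at 24 h, 325 to 390 at 0.5 h and 586 to 835 in controls. The log2 fold change was -0.90 ± 0.21 (SE; edgeR adjusted p = 0.0122) at 24 h and -1.09 ± 0.21 (SE; edgeR adjusted p = 0.0183) at 0.5 h, each against the same 3 control libraries. Between 24 h and 0.5 h the log2 fold change was 0.19 ± 0.21 (SE; edgeR adjusted p = 0.579).

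The call for Tnfsf11 at 24 h was lost without 24 h replicate 1 (log2 fold change -0.85, edgeR adjusted p = 0.054). The call at 0.5 h was lost without 0.5 h replicate 1 (-1.08, edgeR adjusted p = 0.080), replicate 2 (-1.07, adjusted p = 0.0925) or replicate 3 (-1.12, adjusted p = 0.052). Without control replicate 3 both calls held, with smaller log2 fold changes of -0.62 at 24 h (adjusted p = 0.0121) and -0.80 at 0.5 h (adjusted p = 0.0169).

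Tnfrsf11b lies on chromosome 15 (mm10, minus strand, 54250619 to 54278484) and encodes osteoprotegerin. Its level in skull was 66.3, 40.5 and 53.9 CPM in the 24 h libraries, 26.6, 28.1 and 17.0 CPM in the 0.5 h libraries, and 24.6, 21.8 and 25.5 CPM in the control libraries. All 24 h libraries lay above all others, and the 0.5 h and control libraries overlapped. The log2 fold change at 24 h was 1.16 ± 0.21 (SE; edgeR adjusted p = 0.00476) against control and 1.16 ± 0.21 (SE; edgeR adjusted p = 0.00616) against 0.5 h. At 0.5 h against control it was -0.00 ± 0.21 (SE; edgeR adjusted p = 0.996). The 24 h call against control held whichever skull library was left out.

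**Figure D1:**
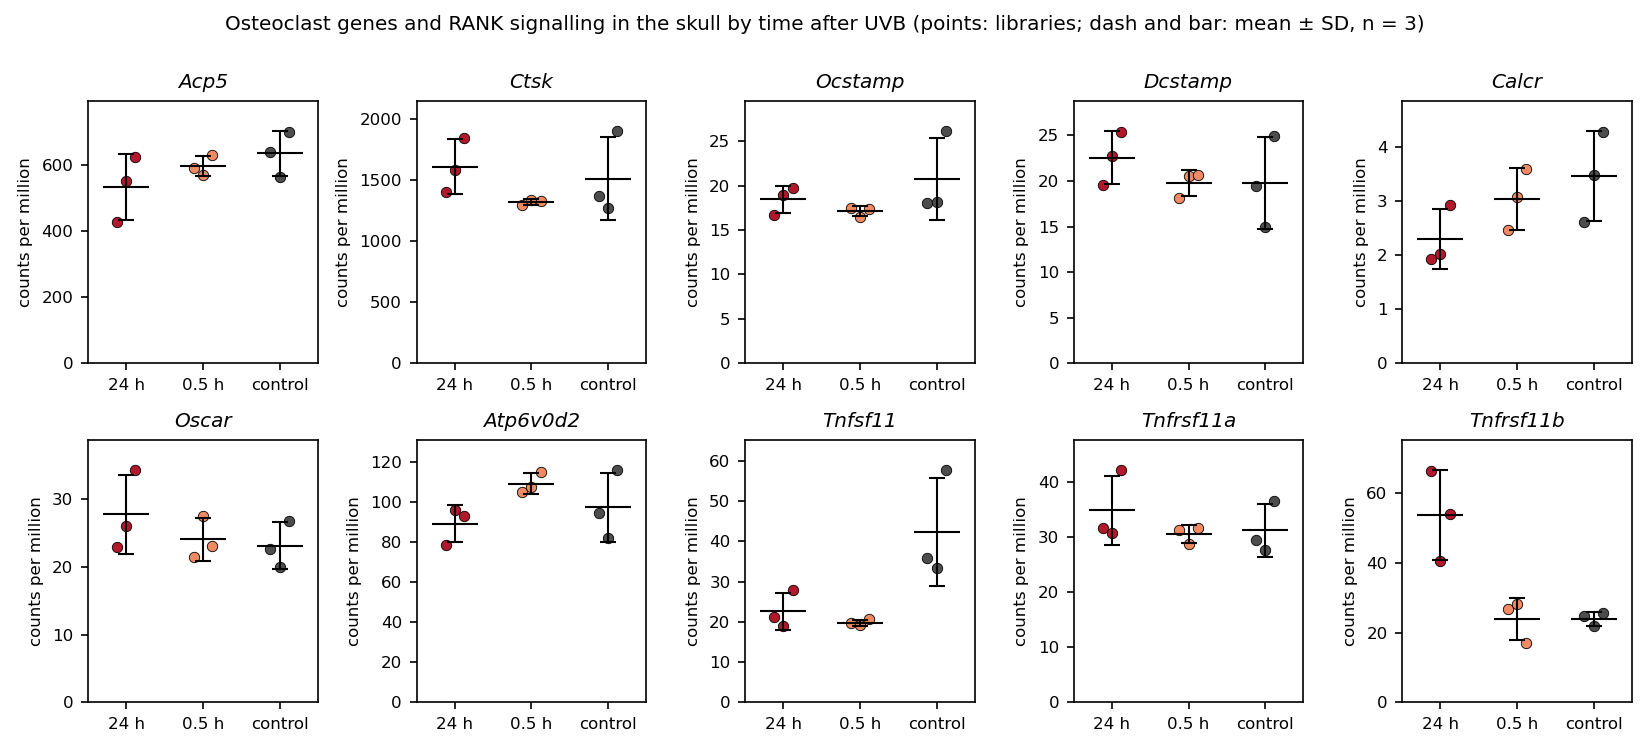
Level of each of the 10 genes in skull, in CPM on axes that start at 0, at 24 h, 0.5 h and in controls. Points are libraries, and the dash and bar are the mean and SD of 3. Tnfrsf11b stands high at 24 h (40.5 to 66.3 CPM) and Tnfsf11 stands low at both times after UVB (18.9 to 27.8 CPM) against controls (33.4 to 57.7 CPM), while the other genes overlap between 24 h and control.

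Because the ligand and the decoy bind each other, their messages were also set against each other within each library, as counts per kb of exon. Library scaling drops out of this ratio. In skull the ratio of Tnfsf11 to Tnfrsf11b was 0.403, 0.588 and 0.651 at 24 h, 0.931, 0.859 and 1.53 at 0.5 h, and 1.84, 1.93 and 2.85 in controls. The 3 groups did not overlap, with the 24 h libraries lowest and the controls highest. The difference in mean log2 ratio was -2.01 between 24 h and control, a ratio 0.248 times as high, -1.02 between 0.5 h and control, and -0.99 between 24 h and 0.5 h. Each of these 3 comparisons gave p = 0.1 in a two-sided exact permutation test, which is the smallest p that 3 libraries against 3 allow, so none could reach 0.05.

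In meninges the same ratio was 0.206, 0.185 and 0.245 at 24 h, 0.1548, 0.2498 and 0.4763 at 0.5 h, and 0.376, 0.214 and 0.309 in controls. These groups overlapped. The mean log2 ratio differed by -0.47 between 24 h and control (p = 0.2), by -0.14 between 0.5 h and control (p = 0.9) and by -0.33 between 24 h and 0.5 h (p = 0.6) in the exact permutation test. All 9 meninges libraries lay between 0.155 and 0.476, so osteoprotegerin message outweighed RANKL message there per kb of exon at every time. Of the skull libraries, 24 h replicate 1, at 0.403, was the one within that range.

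**Figure D2:**
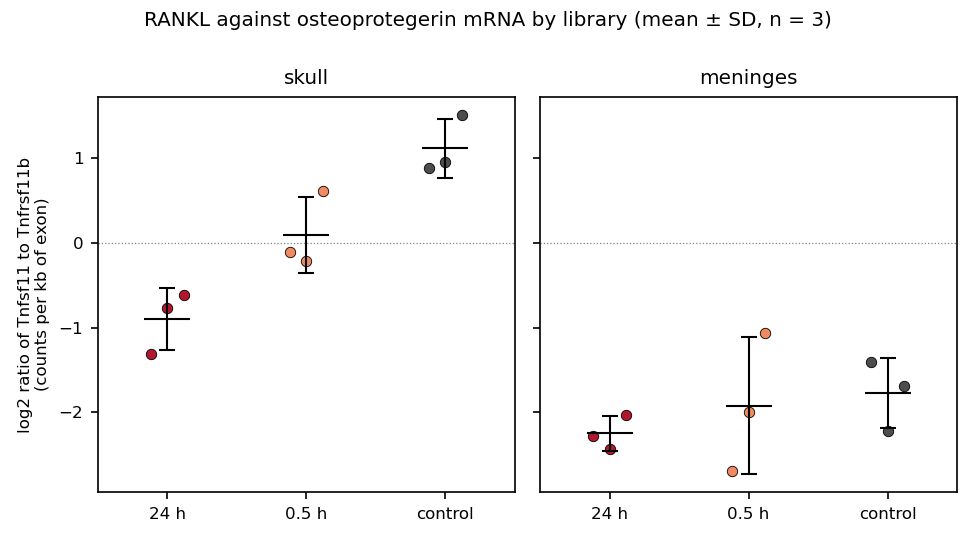
Log2 ratio of Tnfsf11 to Tnfrsf11b, each per kb of exon, in skull (left) and meninges (right) at 24 h, 0.5 h and in controls. Points are libraries, the dash and bar are the mean and SD of 3, and the dotted line marks equal levels. In skull the mean is -0.90 at 24 h, 0.10 at 0.5 h and 1.12 in controls, and in meninges -2.25, -1.92 and -1.78.

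The promoter of Tnfsf11 is shown because its transcript fell, and that of Ctsk because it is the most abundant osteoclast gene here. Both are RefSeq windows on GRCm38.p6, from 250 bases before to 50 after a transcription start, written 5′ to 3′ along the transcribed strand with the letters GGAAA, the core that NFAT factors bind, in capitals (TTTCC where it lies on the other strand).
Tnfsf11, chr14:78307994-78308293, minus strand: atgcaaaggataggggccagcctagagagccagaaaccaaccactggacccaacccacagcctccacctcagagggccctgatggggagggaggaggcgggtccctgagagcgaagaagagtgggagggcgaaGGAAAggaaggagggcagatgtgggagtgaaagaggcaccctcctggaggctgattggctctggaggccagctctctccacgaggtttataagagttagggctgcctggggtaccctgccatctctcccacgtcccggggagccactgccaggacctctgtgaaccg
Ctsk, chr3:95498960-95499259, plus strand: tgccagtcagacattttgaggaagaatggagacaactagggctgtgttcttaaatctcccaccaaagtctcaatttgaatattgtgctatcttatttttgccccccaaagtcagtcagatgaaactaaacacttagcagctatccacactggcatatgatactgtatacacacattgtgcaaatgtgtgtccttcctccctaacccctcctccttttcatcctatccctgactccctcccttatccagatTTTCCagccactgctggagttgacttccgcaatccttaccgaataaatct
Each window held 1 match, whose first base was -117 from the start in Tnfsf11 and 1, the start base itself, in Ctsk. Of the members, 6 had an entry in the RefSeq table, with 9 windows among them, and 7 of these 9 windows held GGAAA on either strand, against 61.3% of all 32851 promoter windows of 300 bases. AP-1 (TGANTCA), the E-box CACGTG and the PU.1 core GAGGAAGT were in 0 of 9, against 7.81%, 7.15% and 3.2% of all windows, and the E-box CATGTG was in 2 of 9, against 14.2%. These are matches of letters on both strands and say nothing of binding.

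Of the 10 genes, 2 were called at 24 h against control in skull, 1 higher and 1 lower, where 20.9% of the 17426 genes tested were called. At 0.5 h against control 1 of 10 was called, where 4.9% of genes were, and at 24 h against 0.5 h 1 of 10, where 16.1% were. The members' shares were thus near the background at 24 h. Their median log2 fold change was -0.02 at 24 h and -0.06 at 0.5 h against control, with medians over all genes tested within 0.01 of 0, and 0.19 at 24 h against 0.5 h.

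Tnfrsf11a (chromosome 1, plus strand, 105780718 to 105847981) encodes RANK, the receptor on osteoclast precursors. In skull it was 31.6, 30.8 and 42.2 CPM at 24 h, 31.3, 28.7 and 31.8 CPM at 0.5 h, and 29.5, 27.7 and 36.7 CPM in controls. The groups overlapped, and the log2 fold change was 0.16 ± 0.14 (SE; edgeR adjusted p = 0.462) at 24 h and -0.03 ± 0.14 (SE; edgeR adjusted p = 0.924) at 0.5 h. The receptor therefore did not pass the test where its ligand and its decoy did.

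Of the resorption genes, Ctsk (chromosome 3, plus strand, 95499256 to 95509362) encodes cathepsin K, the protease that digests bone collagen. It was 1402, 1584 and 1846 CPM at 24 h, 1297, 1338 and 1327 CPM at 0.5 h, and 1366, 1271 and 1900 CPM in control skull. The 24 h libraries lay above the 0.5 h libraries and overlapped the controls, with log2 fold changes of 0.09 ± 0.15 against control and 0.29 ± 0.15 against 0.5 h (SE; edgeR adjusted p = 0.719 and 0.221). Acp5 (chromosome 9, minus strand, 22126727 to 22135711) encodes tartrate-resistant acid phosphatase, the classic histological stain for osteoclasts. It was 428, 552 and 625 CPM at 24 h, 591, 572 and 631 CPM at 0.5 h, and 642, 566 and 701 CPM in controls. The lowest of these 9 libraries was 24 h replicate 1, and the log2 fold change at 24 h against control was -0.25 ± 0.13 (SE; edgeR adjusted p = 0.197). Acp5 shares 137 exon bases with 6530413G14Rik on the opposite strand, and whether the counting used strand is not given in the sources used here.

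Atp6v0d2 (chromosome 4, minus strand, 19876841 to 19922605) encodes the d2 subunit of the proton pump that acidifies the resorption pit, and also acts in precursor fusion. It was 78.6, 95.8 and 93.1 CPM at 24 h, 105, 108 and 115 CPM at 0.5 h, and 94.2, 81.8 and 116 CPM in control skull. All 24 h libraries lay below all 0.5 h libraries. The log2 fold change between them was -0.29 ± 0.12 (SE; edgeR adjusted p = 0.12), and it passed without control replicate 3 (-0.30, edgeR adjusted p = 0.043) and in a fit of the compared groups only (-0.30, edgeR adjusted p = 0.038). Against control the log2 fold change was -0.13 ± 0.12 at 24 h and 0.17 ± 0.12 at 0.5 h (SE; edgeR adjusted p = 0.502 and 0.453).

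The fusion genes Dcstamp (chromosome 15, plus strand, 39745930 to 39760938) and Ocstamp (chromosome 2, minus strand, 165393760 to 165400405) encode the membrane proteins DC-STAMP and OC-STAMP, both needed for precursors to join into multinucleated cells in mice. Dcstamp was 19.6, 22.7 and 25.4 CPM at 24 h, 18.2, 20.6 and 20.7 CPM at 0.5 h, and 19.5, 14.9 and 24.9 CPM in control skull. Ocstamp was 16.7, 18.9 and 19.7 CPM at 24 h, 17.5, 16.5 and 17.3 CPM at 0.5 h, and 18.1, 18.1 and 26.1 CPM in controls. The 0.5 h libraries of Ocstamp lay below the controls without a call, with a log2 fold change of -0.28 ± 0.15 (SE; edgeR adjusted p = 0.309). For both genes the 24 h libraries overlapped the controls. The log2 fold change at 24 h was 0.19 ± 0.17 for Dcstamp and -0.17 ± 0.15 for Ocstamp (SE; edgeR adjusted p = 0.469 and 0.471).

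The surface receptors of mature osteoclasts were also without a call in skull. Calcr (chromosome 6, minus strand, 3685680 to 3764714) encodes the calcitonin receptor, through which calcitonin halts resorption, and it was the lowest of the 10 genes. It was 1.92, 2.02 and 2.93 CPM at 24 h, 2.46, 3.07 and 3.59 CPM at 0.5 h, and 2.62, 3.47 and 4.28 CPM in controls. The ranges overlapped, with a log2 fold change of -0.59 ± 0.29 (SE; edgeR adjusted p = 0.171) at 24 h. Oscar (chromosome 7, minus strand, 3609813 to 3616157) encodes a collagen-binding receptor that costimulates RANK. It was 22.9, 26.1 and 34.3 CPM at 24 h, 21.5, 27.5 and 23.1 CPM at 0.5 h, and 22.7, 20.0 and 26.8 CPM in controls, with a log2 fold change of 0.26 ± 0.16 (SE; edgeR adjusted p = 0.281) at 24 h.

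**Figure D3:**
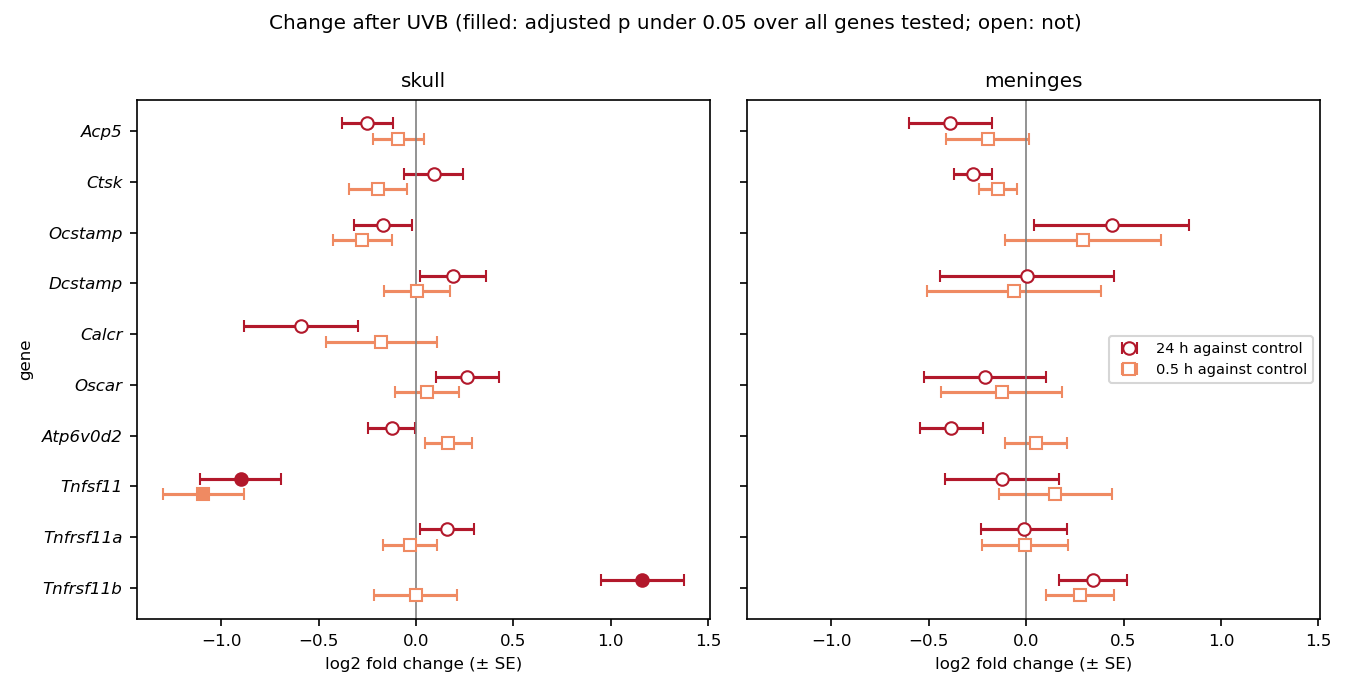
Log2 fold change (± SE, edgeR) of the 10 genes against control in skull (left) and meninges (right), at 24 h (circles) and 0.5 h (squares). Filled symbols passed an adjusted p of 0.05 over all genes tested. In skull these are Tnfsf11 at both times (-0.90 and -1.09) and Tnfrsf11b at 24 h (1.16), in meninges none, and Calcr was not tested in meninges.

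Within the 9 skull libraries Ctsk ran closest to Dcstamp (Pearson r of log2 CPM 0.86), Tnfrsf11a (0.86), Ocstamp (0.81) and Oscar (0.78). Acp5 ran closer to Calcr (0.73) and Atp6v0d2 (0.72), and Tnfrsf11b ran against Calcr (-0.67), Acp5 (-0.63) and Atp6v0d2 (-0.57). These describe 9 libraries that share 3 groups and the tissue's makeup. The genes nearest to the mean profile of the 7 osteoclast genes in skull, of 11629 candidates, were Kazn (r = 0.91), Acap2 (0.88), Med6 (0.87), Pex7 (0.86), Fam114a2 (0.86), Myo1e (0.86), Ssh1 (0.85) and Trmt10b (0.85). In meninges, with 6 of the 7 osteoclast genes tested, of 12390 candidates, they were Cyb5rl (0.91), Arfgef3 (0.91), Zscan12 (0.90), Cln6 (0.90), Sirt5 (0.88), Gdap1l1 (0.88), Samd12 (0.88) and Sars (0.86), so no gene was among the 8 in both tissues.

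In meninges none of the 10 genes was called after UVB. Calcr did not reach the minimum count to be tested there. Of the 9 tested, 0 were called at 24 h against control, where 8.42% of 18542 genes were, 0 at 0.5 h against control, where 0.874% were, and 0 at 24 h against 0.5 h, where 2.34% were, in edgeR's quasi-likelihood test. At an unadjusted p under 0.05 the counts were 2, 0 and 1, and DESeq2 called 1 at 24 h against control, Ctsk, and 0 in the other comparisons. Markers of neighbouring tissue varied widely between meninges libraries. Choroid plexus markers summed to 143 to 19791 CPM at 24 h, 5262 to 7228 CPM at 0.5 h and 123 to 9426 CPM in controls. Skeletal muscle markers summed to 7.30 to 73.4 CPM, 29.0 to 2128 CPM and 18.9 to 4254 CPM. The part of this spread in the counts of called genes was not tested.

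Ctsk in meninges was 279, 317 and 279 CPM at 24 h, 302, 327 and 328 CPM at 0.5 h, and 331, 333 and 394 CPM in controls. Every 24 h and 0.5 h library lay below every control library. The log2 fold change at 24 h was -0.27 ± 0.10 (SE; edgeR adjusted p = 0.108), and in DESeq2 it was -0.28 with an adjusted p of 0.0352. At 0.5 h against control the log2 fold change of Ctsk was -0.15 ± 0.10 (SE; edgeR adjusted p = 0.572). Atp6v0d2 was 11.7, 13.3 and 12.4 CPM at 24 h, 13.5, 17.7 and 19.5 CPM at 0.5 h, and 18.6, 15.2 and 15.1 CPM in controls. Its 24 h libraries lay below all others, with log2 fold changes of -0.38 ± 0.16 against control and -0.43 ± 0.16 against 0.5 h (SE; edgeR adjusted p = 0.171 and 0.203). The summed osteoblast and osteocyte markers ran from 14204 to 29561 CPM in the same 24 h libraries, from 24593 to 30992 CPM at 0.5 h and from 22341 to 39768 CPM in controls, and their part in these values was not tested.

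Tnfsf11 in meninges was 5.03, 5.63 and 7.99 CPM at 24 h, 5.02, 7.53 and 9.99 CPM at 0.5 h, and 8.68, 5.57 and 6.09 CPM in controls. The groups overlapped, with log2 fold changes of -0.12 ± 0.29 at 24 h and 0.15 ± 0.29 at 0.5 h (SE; edgeR adjusted p = 0.842 and 0.907). Tnfrsf11b was 30.8, 38.3 and 41.0 CPM at 24 h, 40.8, 38.0 and 26.4 CPM at 0.5 h, and 29.1, 32.8 and 24.8 CPM in controls. It too overlapped, with a log2 fold change of 0.34 ± 0.17 (SE; edgeR adjusted p = 0.262) at 24 h. The remaining members were Acp5 at 63.6 to 136 CPM, Tnfrsf11a at 14.4 to 26.8 CPM, Oscar at 2.69 to 5.56 CPM, Dcstamp at 0.890 to 3.37 CPM and Ocstamp at 0.949 to 2.39 CPM over the 9 libraries, and Calcr had 1 to 17 reads per library.

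**Figure D4:**
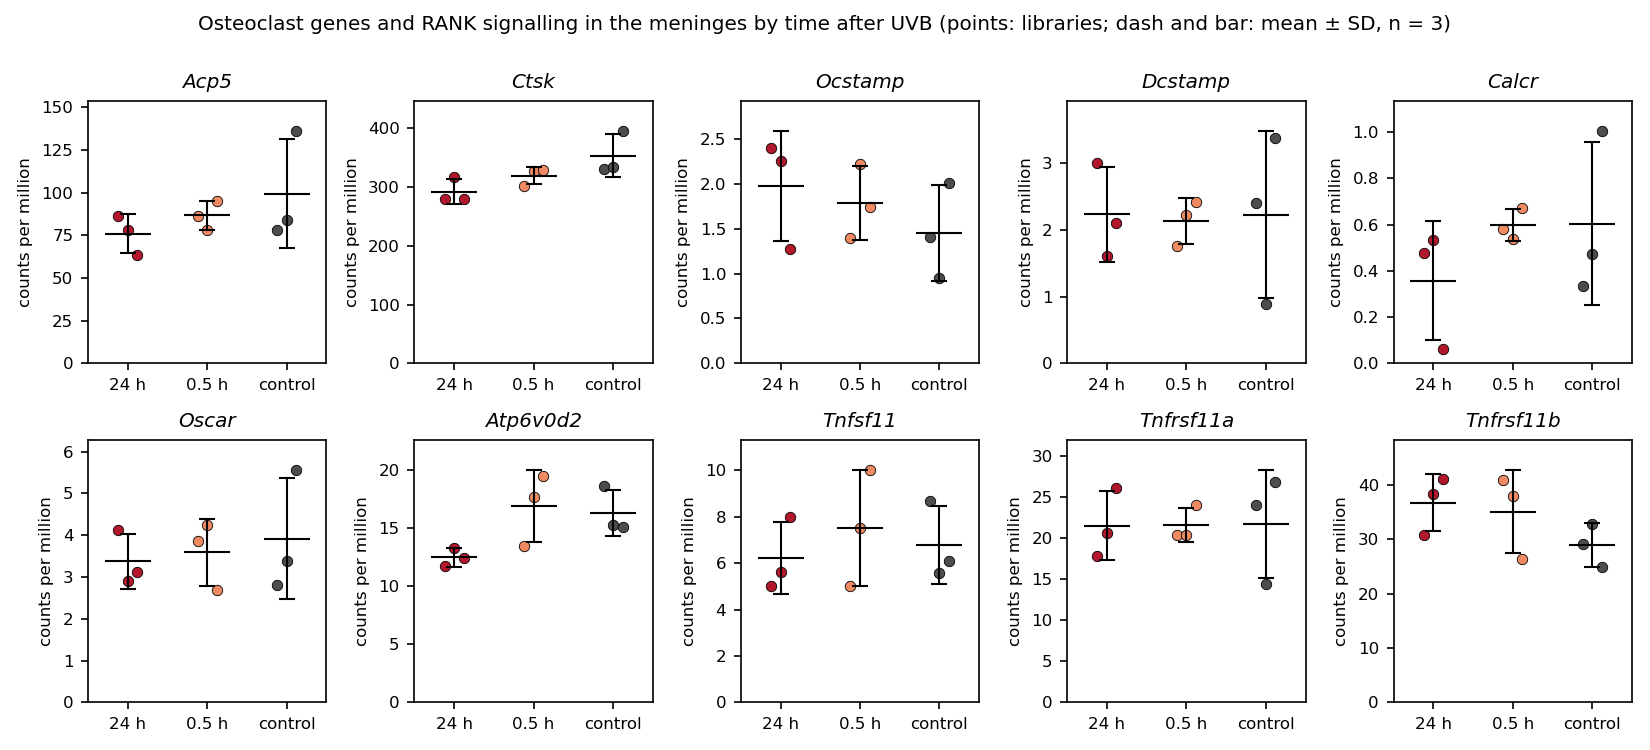
Level of each of the 10 genes in meninges, in CPM on axes that start at 0, at 24 h, 0.5 h and in controls. Points are libraries, and the dash and bar are the mean and SD of 3. At 24 h Ctsk (279 to 317 CPM) lies below the controls and overlaps 0.5 h, and Atp6v0d2 (11.7 to 13.3 CPM) lies below both. The other genes overlap between 24 h and control.

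Whether the change after UVB differed between skull and meninges was tested directly, as the change in skull minus the change in meninges. None of the 10 genes passed at 24 h, where 0.633% of 21500 genes did, or at 0.5 h, where 0.0093% did, in edgeR's quasi-likelihood test, and DESeq2 also called 0 at both times. The unadjusted p was under 0.05 for 2 members at 24 h, Ctsk and Tnfrsf11b, and 1 at 0.5 h, Tnfsf11. The difference for Ctsk at 24 h was 0.38 ± 0.17 (log2, SE; edgeR adjusted p = 0.399). The difference for Tnfsf11 was -1.23 ± 0.37 at 0.5 h and -0.76 ± 0.37 at 24 h (log2, SE; edgeR adjusted p = 0.651 and 0.453), and for Tnfrsf11b it was 0.83 ± 0.30 at 24 h (SE; edgeR adjusted p = 0.265). The calls in skull and their absence in meninges are therefore not shown to be a difference between the tissues.

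In brain 5 members reached the minimum count to be tested, Ctsk, Calcr, Oscar, Tnfrsf11a and Tnfrsf11b. In edgeR's test 0 of these 5 were called at 24 h against control, where 2.62% of 18172 genes were, 0 at 0.5 h against control, where 0.0055% were, and 0 at 24 h against 0.5 h, where 0.22% were. At an unadjusted p under 0.05 the count was 0 in each, as it was in DESeq2 after adjustment. Tnfsf11 had 0 reads in all 3 libraries at 24 h and at 0.5 h, and 1, 1 and 0 reads in controls. Acp5, Ocstamp, Dcstamp and Atp6v0d2 had at most 18 reads in any brain library. Calcr, which neurons of the hypothalamus and hindbrain also express, had 12, 25 and 7 reads at 24 h, 100, 11 and 4 at 0.5 h, and 40, 20 and 6 in controls, so 0.5 h replicate 1 stood apart from the rest.

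Between untreated tissues the levels ran in a steep order. Of the 10 genes, 9 were called higher in control skull than in control meninges, where 48.2% of 21500 genes were called, 4648 higher and 5706 lower. The median log2 fold change was 2.78 over the members and -0.04 over all genes. Control meninges against control brain called 8 of 10, all higher, where 70.5% of genes were called, 7907 higher and 7250 lower. Control skull against control brain called 10 of 10, all higher, where 75.6% of genes were called, 8028 higher and 8229 lower. These comparisons share control libraries and rest on scaling across tissues that differ in most genes. Within brain, Acp5, Ocstamp, Dcstamp, Atp6v0d2 and Tnfsf11 did not reach the minimum count, nor did Calcr within meninges. They entered these contrasts through the tissues where they are higher. The members were chosen as osteoclast and RANK genes, so these counts describe levels and are no support for the choice. The call of Calcr in skull against brain was lost when single control libraries were left out.

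Per kb of exon, Ctsk was 1085 ± 239 CPM in control skull, 218 ± 24.4 CPM in control meninges and 2.83 ± 0.21 CPM in control brain (SD, n = 3 each). Acp5 came second in skull and meninges, at 340 ± 35.1 CPM per kb in control skull and 45.7 ± 15.1 CPM per kb in control meninges. In control skull the order below these was Atp6v0d2 (38.9 ± 6.7), Tnfsf11 (20.5 ± 6.4), Oscar (13.6 ± 2.0), Tnfrsf11b (9.22 ± 0.73), Dcstamp (8.06 ± 2.02), Ocstamp (6.16 ± 1.35), Tnfrsf11a (5.67 ± 0.84) and Calcr (0.959 ± 0.228), all in CPM per kb (SD, n = 3). Neighbours from Tnfrsf11b to Tnfrsf11a lay within their SDs of each other, while Ctsk, Acp5, Atp6v0d2 and Calcr stood clear. At 24 h in skull the order of the ligand and the decoy was turned round, with Tnfrsf11b at 20.5 ± 4.9 CPM per kb and Tnfsf11 at 10.9 ± 2.1 CPM per kb.

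Tnfrsf11b was the member that did not separate skull from meninges. Its level per kb was 9.22 ± 0.73 CPM in control skull and 9.56 ± 1.20 CPM in control meninges (SD, n = 3 each), with a log2 fold change of -0.05 ± 0.21 (SE; edgeR adjusted p = 0.871). Tnfsf11 in contrast was 2.86 ± 0.27 log2 units higher in control skull than in control meninges (SE; edgeR adjusted p = 3.68e-08). The log2 fold change of control skull against control meninges was 4.04 ± 0.44 for Ocstamp, 3.36 ± 0.39 for Dcstamp, 2.89 ± 0.28 for Acp5, 2.79 ± 0.19 for Atp6v0d2, 2.77 ± 0.25 for Oscar, 2.70 ± 0.77 for Calcr and 2.32 ± 0.13 for Ctsk (SE), and it was smallest of the called genes for Tnfrsf11a, at 0.74 ± 0.19. Oscar and Calcr were without a call between control meninges and control brain (edgeR adjusted p = 0.157 and 0.314).

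**Figure D5:**
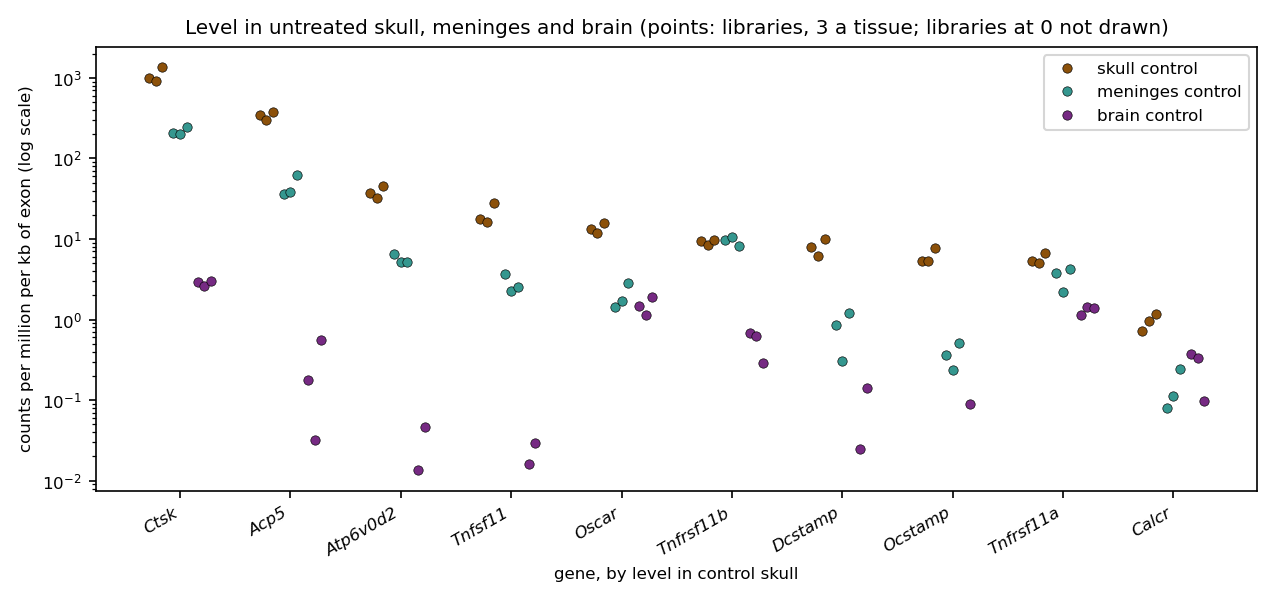
Level of the 10 genes in control skull, meninges and brain, in CPM per kb of exon on a log axis, with genes ordered by their level in skull. Points are libraries, 3 a tissue, and libraries with 0 reads are not drawn. Tnfrsf11b lies at the same height in skull (9.22) and meninges (9.56), where Ctsk lies at 1085 in skull, 218 in meninges and 2.83 in brain.

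The rest of the pathway was read from 7 lists of genes around the members, with 142 genes tested in skull. At 24 h against control 11 of the 142 were higher and 28 lower, where 20.9% of all genes were called, 1842 higher and 1807 lower. At 0.5 h against control 4 were higher and 14 lower, where 4.9% of all genes were called, 341 higher and 513 lower. At 24 h against 0.5 h 9 were higher and 21 lower, where 16.1% were called, 1462 higher and 1349 lower. In meninges, of 141 tested, 6 were higher and 15 lower at 24 h against control (8.42% of all genes called, 736 higher and 825 lower). At 0.5 h against control 0 were higher and 6 lower (0.874% of all genes, 68 higher and 94 lower). At 24 h against 0.5 h 1 was higher and 7 lower (2.34% of all genes, 198 higher and 236 lower). The counts of each list below stand against these shares, and no test of a list as a whole was made. The lists were chosen with earlier results of these data known, so a count above these shares is no support for a list. Comparisons within a tissue share libraries.

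Of 34 genes of the signalling chain below RANK, 2 were higher, 10 lower and 22 without a call at 24 h against control in skull, with a median log2 fold change of -0.18. The lower genes with the smallest p were Rel, an NF-κB subunit (-1.01 ± 0.08, edgeR adjusted p = 1.55e-05), Nfkbia, the NF-κB inhibitor that NF-κB itself induces (-1.71 ± 0.17, adjusted p = 0.000187), and Fosl2, an AP-1 subunit (-0.88 ± 0.12, adjusted p = 0.000528). The higher genes included Map3k14, the NIK kinase of the non-canonical NF-κB pathway (0.55 ± 0.12, adjusted p = 0.00664). At 0.5 h 2 of 34 were higher, Map3k14 (0.54 ± 0.12, adjusted p = 0.0238) and Creb1 (0.37 ± 0.10, adjusted p = 0.0495), and 8 were lower, led by Rel (-0.57 ± 0.08, adjusted p = 0.00436), Fosl2 (-0.82 ± 0.12, adjusted p = 0.00484) and Rela (-0.50 ± 0.09, adjusted p = 0.0137). Without skull control replicate 3 the 0.5 h count was 0 higher and 3 lower, and without 0.5 h replicate 1 it was 2 in all. The 0.5 h call of Creb1 was lost in 8 of 9 fits without 1 library, with edgeR adjusted p up to 0.149. That of Map3k14 was lost in 4 such fits and that of Rela in 2. Between 24 h and 0.5 h 4 genes were higher, among them Akt1 (0.35 ± 0.08, adjusted p = 0.0113) and Fosl1 (2.07 ± 0.63, adjusted p = 0.0416), and 6 lower, led by Jun (-1.31 ± 0.19, adjusted p = 0.00242), Rel (-0.43 ± 0.08, adjusted p = 0.00491) and Nfkbia (-0.73 ± 0.17, adjusted p = 0.0166). Without 0.5 h replicate 1 this count was 4 in all. The call of Fosl1 was lost in 8 of 9 fits without 1 library, with adjusted p up to 0.197, that of Akt1 in 2 and that of Nfkbia in 2.

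Nfatc1, the master factor of osteoclasts, did not pass in skull, at 139, 152 and 163 CPM at 24 h, 140, 135 and 144 CPM at 0.5 h, and 147, 146 and 191 CPM in controls. In meninges Nfatc1 was 50.7, 52.9 and 53.9 CPM at 24 h, 54.1, 54.5 and 57.2 CPM at 0.5 h, and 69.8, 61.9 and 65.7 CPM in controls. There the 24 h libraries lay below the controls, and Nfatc1 fell by 0.33 ± 0.08 on the log2 scale (SE; edgeR adjusted p = 0.0278), a call lost when any 24 h library, control replicate 1 or control replicate 3 was left out, with adjusted p up to 0.0872.

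The signalling list in meninges had 2 of 33 genes higher and 6 lower at 24 h against control. The lower ones were led by Jun (-1.37 ± 0.12, edgeR adjusted p = 0.000145), Nfkbia (-1.47 ± 0.14, adjusted p = 0.000224) and Rel (-0.81 ± 0.11, adjusted p = 0.0015), and the higher ones were Traf2, an adaptor of TNF receptors (0.56 ± 0.10, adjusted p = 0.0104), and Map3k14 (0.53 ± 0.14, adjusted p = 0.0442). The call of Map3k14 was lost in 7 of 9 fits without 1 library, with adjusted p up to 0.146, and the count of 8 was 5 without control replicate 3. At 0.5 h 4 of 33 were lower and 0 higher, led by Rel (-0.68 ± 0.11, adjusted p = 0.0148), Jun (-0.69 ± 0.11, adjusted p = 0.0209) and Fosl2 (-1.09 ± 0.18, adjusted p = 0.0268). None of these 4 held without control replicate 1. Jun (-0.67 ± 0.12, adjusted p = 0.0156) and Nfkbia (-0.77 ± 0.14, adjusted p = 0.0183) were the 2 called between 24 h and 0.5 h, both lower. Neither held without 0.5 h replicate 1.

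Of 24 genes known to act on RANKL production, 3 were higher and 5 lower at 24 h against control in skull. Without 24 h replicate 1 the count was 4 in all. Vdr, the vitamin D receptor, which drives Tnfsf11 in osteoblast-lineage cells, was 78.9, 78.9 and 88.0 CPM at 24 h, 216, 266 and 221 CPM at 0.5 h, and 327, 204 and 300 CPM in controls. The 24 h libraries lay below all others, and Vdr fell by 1.76 ± 0.16 on the log2 scale (SE; edgeR adjusted p = 7.71e-05). Sost, which encodes the osteocyte protein sclerostin, was 11.9, 18.4 and 15.4 CPM at 24 h, 44.4, 58.4 and 64.9 CPM at 0.5 h, and 50.9, 43.8 and 40.2 CPM in controls, and fell by 1.56 ± 0.18 on the log2 scale (SE; edgeR adjusted p = 0.000271). Ptger4, a prostaglandin E2 receptor, fell as well (-0.84 ± 0.16, adjusted p = 0.00304). Sp7, the osteoblast factor osterix, was 366, 312 and 298 CPM at 24 h, 242, 296 and 186 CPM at 0.5 h, and 159, 133 and 191 CPM in controls, and rose by 1.01 ± 0.18 on the log2 scale (SE; edgeR adjusted p = 0.0038). Wnt5a (0.38 ± 0.12, adjusted p = 0.035) and the Wnt inhibitor Dkk1 (0.57 ± 0.19, adjusted p = 0.0495) also rose, and both calls were lost without any 1 of the 24 h libraries. In all, these calls were lost in 5 (Wnt5a) and 8 (Dkk1) of 9 fits without 1 library.

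At 0.5 h 1 of these 24 genes was higher in skull, Dkk1 (0.87 ± 0.19, edgeR adjusted p = 0.0234), and 4 were lower. Il6, a cytokine that raises RANKL in bone, was 0.720, 0.472 and 1.59 CPM at 0.5 h, below 3.11, 4.04 and 9.76 CPM at 24 h and 6.36, 6.78 and 11.8 CPM in controls. Its log2 fold change at 0.5 h against control was -3.13 ± 0.56 (SE; adjusted p = 0.0178), beside those of Ptger4 (-0.88 ± 0.16, adjusted p = 0.0111) and Il1b (-0.90 ± 0.18, adjusted p = 0.0182). Without 0.5 h replicate 1 none of the 24 was called. Between 24 h and 0.5 h Il1b (0.97 ± 0.18, adjusted p = 0.00427) and Il6 (2.57 ± 0.56, adjusted p = 0.0147) were higher, and Sost (-1.88 ± 0.18, adjusted p = 0.000151), Vdr (-1.52 ± 0.16, adjusted p = 0.000335) and the cytokine receptor gene Lifr (-0.37 ± 0.11, adjusted p = 0.0378) were lower. The call of Lifr was lost in 6 of 9 fits without 1 library and that of Il6 in 2.

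In meninges 1 of the 24 genes was higher at 24 h against control, Sp7 (1.03 ± 0.20, edgeR adjusted p = 0.0191), and 2 were lower, Vdr (-1.81 ± 0.28, adjusted p = 0.00972) and the cytokine gene Osm (-1.46 ± 0.33, adjusted p = 0.0217). The call of Sp7 was lost in 3 of 9 fits without 1 library and that of Osm in 4. Vdr in meninges was 16.2, 35.5 and 32.4 CPM at 24 h, 68.3, 76.1 and 84.9 CPM at 0.5 h, and 100, 112 and 81.9 CPM in controls, so here too the 24 h libraries lay lowest. Il6 was the 1 gene lower at 0.5 h against control (-3.58 ± 0.58, adjusted p = 0.0192), at 0.233, 0.202 and 0.337 CPM at 0.5 h and 2.27, 3.20 and 4.08 CPM in controls, a call lost in each fit without a 0.5 h or a control library. Vdr was the 1 gene lower at 24 h against 0.5 h (-1.45 ± 0.28, adjusted p = 0.043), a call lost in 8 of 9 fits without 1 library, with adjusted p up to 0.139.

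Markers of other cells stood beside these results in skull. Of 13 osteoblast and osteocyte markers, 4 were higher at 24 h against control (Ibsp, Sp7, Alpl and Pdpn) and 3 lower (Bglap, Bglap2 and Sost), and 0 were called at 0.5 h in edgeR. Their summed level was 61697 to 73297 CPM at 24 h, 53111 to 80995 CPM at 0.5 h and 53519 to 97246 CPM in controls. Of 9 markers of B cell precursors, which also make osteoprotegerin, 5 were lower at 24 h and 0 at 0.5 h against control, with a sum of 102 to 170 CPM at 24 h, 231 to 298 CPM at 0.5 h and 219 to 259 CPM in controls. Of 11 macrophage markers 4 were lower at 24 h, with a sum of 773 to 883 CPM at 24 h and 980 to 1186 CPM in controls. Of 6 monocyte markers, the lineage from which osteoclasts form, 1 was higher at 24 h, and their sum was 2156 to 2259 CPM at 24 h, 1628 to 1808 CPM at 0.5 h and 1785 to 1996 CPM in controls. Microglia markers, some of which macrophages also express, summed to 509 to 588 CPM at 24 h, 356 to 422 CPM at 0.5 h and 360 to 410 CPM in controls, with 1 higher and 1 lower of 5 tested at 24 h. Erythroid markers summed to 2731 to 4188 CPM at 24 h, 5034 to 7728 CPM at 0.5 h and 4833 to 5364 CPM in controls, with 3 of 6 lower at 24 h. The 6 cartilage markers summed to 197 to 229 CPM at 24 h and 252 to 279 CPM in controls, with 0 called at 24 h. At 24 h the sums of monocyte and microglia markers thus lay above the controls, and those of macrophage, B cell precursor, erythroid and cartilage markers below them. A sum follows its most abundant genes, and the median log2 fold change at 24 h was 0.09 over the monocyte and -0.16 over the microglia markers. The part of these cell types in the values of Tnfsf11 and Tnfrsf11b was not tested.

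Of 18 repressors of osteoclast formation, 1 was higher, 5 lower and 12 without a call at 24 h against control in skull. Without control replicate 1 the count was 3 in all. The higher one was Prdm1, which encodes BLIMP1, which in osteoclasts represses other repressors (0.58 ± 0.15, edgeR adjusted p = 0.0183). The 5 lower were led by Id2, an inhibitor of helix-loop-helix factors (-1.29 ± 0.12, adjusted p = 3.34e-05), Tnfaip3, which encodes the NF-κB brake A20 (-1.92 ± 0.19, adjusted p = 0.000169), and Il10 (-1.61 ± 0.44, adjusted p = 0.0226), whose call was lost in 4 of 9 fits without 1 library, as that of Prdm1 was in 2. At 0.5 h Prdm1 (0.74 ± 0.15, adjusted p = 0.0192) was higher, and Tnfaip3 (-1.03 ± 0.18, adjusted p = 0.0151) and Id2 (-0.44 ± 0.11, adjusted p = 0.0459) were lower. Without 0.5 h replicate 1 this last count was 0, and the 0.5 h call of Id2 was lost in 7 of 9 fits without 1 library. In meninges 3 of 18 were lower at 24 h against control, Tnfaip3 (-1.65 ± 0.15, adjusted p = 0.000179), Id2 (-0.66 ± 0.11, adjusted p = 0.00603) and Il10 (-2.78 ± 0.49, adjusted p = 0.00769), and 0 were higher, while Tnfaip3 was the 1 of 18 lower at 0.5 h (-0.96 ± 0.14, adjusted p = 0.0131). Between 24 h and 0.5 h the lower genes were 4 of 18 in skull, led by Id2 (-0.84 ± 0.12, adjusted p = 0.000803), Tnfaip3 (-0.89 ± 0.19, adjusted p = 0.0107) and Eomes (-2.17 ± 0.63, adjusted p = 0.0351), and 3 of 18 in meninges, Id2 (-0.63 ± 0.11, adjusted p = 0.0185), Il10 (-2.38 ± 0.49, adjusted p = 0.033) and Tnfaip3 (-0.68 ± 0.15, adjusted p = 0.0393). Without 0.5 h replicate 1 these counts were 2 in skull and 0 in meninges, and the call of Eomes was lost in 5 of 9 fits without 1 library. The call of Tnfaip3 at 0.5 h in meninges was lost in 5 of 9.

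The immunoreceptor arm that costimulates RANK gave 1 higher and 2 lower of 14 genes at 24 h against control in skull. Trem2, a receptor of macrophages and osteoclasts, was 16.9, 9.48 and 12.7 CPM at 24 h, 5.64, 8.55 and 8.35 CPM at 0.5 h, and 6.60, 6.66 and 4.97 CPM in controls. The 24 h libraries lay above all others, and Trem2 rose by 1.10 ± 0.24 on the log2 scale (SE; edgeR adjusted p = 0.00709). In meninges Trem2 was 14.0, 15.8 and 18.5 CPM at 24 h, 10.2, 9.88 and 6.57 CPM at 0.5 h, and 9.35, 9.55 and 5.73 CPM in controls, and rose by 0.97 ± 0.24 (SE; edgeR adjusted p = 0.0294), a call lost in 6 of 9 fits without 1 library. The 2 lower genes in skull, the adaptor Blnk (-0.86 ± 0.25, adjusted p = 0.0316) and the kinase Syk (-0.49 ± 0.15, adjusted p = 0.0413), are also B cell genes and stood beside the lower B cell precursor markers. The part of B cells in the values of Blnk and Syk was not tested. Their calls were lost in 5 (Blnk) and 6 (Syk) of 9 fits without 1 library, and the count of 3 was 1 without control replicate 1. All 3 also passed at 24 h against 0.5 h in skull, where Trem2 was 0.79 ± 0.23, Syk -0.55 ± 0.15 and Blnk -0.85 ± 0.24 (log2, SE; edgeR adjusted p = 0.0367, 0.0301 and 0.0401). These calls were lost in 5 (Trem2), 4 (Syk) and 7 (Blnk) of 9 such fits, and none of the 14 was called without 0.5 h replicate 2. At 0.5 h against control 0 of 14 were called in skull or meninges by edgeR or DESeq2, with 1 and 2 at an unadjusted p under 0.05. The smallest p belonged to Sirpb1a (-0.83 ± 0.32, edgeR adjusted p = 0.151) and Fcer1g (-0.44 ± 0.21, adjusted p = 0.27) in skull and to Tyrobp (-0.44 ± 0.13, adjusted p = 0.161) and Fcer1g (-0.61 ± 0.24, adjusted p = 0.309) in meninges. At 24 h against 0.5 h in meninges edgeR called 0, with 4 at an unadjusted p under 0.05, and DESeq2 called 2. There Trem2 (0.86 ± 0.23, edgeR adjusted p = 0.091) and Pirb (0.88 ± 0.26, adjusted p = 0.134) came nearest.

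In the M-CSF axis, which keeps osteoclast precursors alive, 1 of 10 genes changed at 24 h against control in skull, Pik3r1, a PI3-kinase subunit (-0.61 ± 0.10, edgeR adjusted p = 0.00156). Without control replicate 3 the count was 2 higher and 1 lower. In meninges Csf1, which encodes M-CSF (0.65 ± 0.10, adjusted p = 0.00315), and Tfe3 (0.42 ± 0.11, adjusted p = 0.0431) were higher and Pik3r1 (-0.54 ± 0.13, adjusted p = 0.0301) lower at 24 h against control. The call of Csf1 held in all 9 fits without 1 library, while that of Tfe3 was lost in 8 and that of Pik3r1 in 6. In skull the log2 fold change of Csf1 was 0.24 ± 0.10 (adjusted p = 0.125). At 0.5 h against control 0 of 10 were called by edgeR or DESeq2 in skull, with 1 at an unadjusted p under 0.05, where Pik3r1 (0.23 ± 0.10, edgeR adjusted p = 0.198) and Cbl (0.24 ± 0.13, adjusted p = 0.3) came nearest, or in meninges, with 0 at an unadjusted p under 0.05, where Tfe3 (0.19 ± 0.11, adjusted p = 0.528) and Spi1 (-0.32 ± 0.21, adjusted p = 0.568) did. Between 24 h and 0.5 h Pik3r1 was lower in skull (-0.85 ± 0.10, adjusted p = 0.000365), and in meninges Csf1 was higher (0.64 ± 0.10, adjusted p = 0.0111) and Pik3r1 lower (-0.59 ± 0.13, adjusted p = 0.043), calls lost in 1 and 7 of 9 such fits. Without skull control replicate 3 the count in skull was 1 higher and 2 lower.

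Of 30 further osteoclast effectors, 4 were higher and 5 lower at 24 h against control in skull, and 0 were called at 0.5 h in edgeR or DESeq2, with 3 at an unadjusted p under 0.05, where Plekhm1 (0.31 ± 0.09, edgeR adjusted p = 0.0771) and Ctsz (-0.27 ± 0.10, adjusted p = 0.131) came nearest. The higher ones at 24 h were led by Slc4a2, the bicarbonate exchanger of resorbing cells (0.37 ± 0.09, edgeR adjusted p = 0.016), Slc9b2 (0.56 ± 0.14, adjusted p = 0.0171) and Anpep (0.47 ± 0.14, adjusted p = 0.029). The lower ones were led by the aggrecanase gene Adamts5 (-1.04 ± 0.14, adjusted p = 0.00069), Dpp4 (-1.10 ± 0.22, adjusted p = 0.00539) and Sh3pxd2a (-0.61 ± 0.13, adjusted p = 0.00709), of which Adamts5 and Dpp4 are also fibroblast genes. The calls of these lower 3 held whichever skull library was left out, while each of the higher 3 was lost in 3 or 4 of 9 such fits. The count of 9 was 4 without control replicate 1. At 24 h against 0.5 h 1 effector was higher, Anpep (0.66 ± 0.14, adjusted p = 0.0078), and 5 were lower, led by Adamts5 (-0.89 ± 0.14, adjusted p = 0.00219), Dpp4 (-1.17 ± 0.22, adjusted p = 0.00486) and the carbonic anhydrase gene Car2 (-1.80 ± 0.31, adjusted p = 0.0091). Between the same groups the sum of erythroid markers was 2731 to 4188 CPM at 24 h and 5034 to 7728 CPM at 0.5 h. The part of erythroid cells in the value of Car2 was not tested. In meninges 3 effectors were lower at 24 h against control, Pstpip1 (-0.54 ± 0.10, adjusted p = 0.0115), Nfatc1 and Myo1d (-0.43 ± 0.11, adjusted p = 0.0316). The call of Myo1d was lost in 5 of 9 fits without 1 library. The count was 1 without control replicate 1. There edgeR called 0 at 0.5 h against control, with 4 at an unadjusted p under 0.05 and 0 by DESeq2, and 0 at 24 h against 0.5 h, with 8 and 2, where Adamts4 (-0.85 ± 0.21, adjusted p = 0.0729) and Adamts5 (-0.54 ± 0.16, adjusted p = 0.13) came nearest.

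Of the 17 V-ATPase subunits 0 were called at 24 h or 0.5 h against control in skull by edgeR or DESeq2, with 4 and 7 at an unadjusted p under 0.05, and 1 was higher at 24 h against 0.5 h, Atp6v1h (0.41 ± 0.11, adjusted p = 0.0203), a call lost in 3 of 9 fits without 1 library. Nearest in skull were Atp6v1f (-0.26 ± 0.09, adjusted p = 0.0595) and Atp6v0e (-0.19 ± 0.07, adjusted p = 0.0864) at 24 h against control, and Atp6v1f (-0.28 ± 0.09, adjusted p = 0.101) and Atp6v1h (-0.31 ± 0.11, adjusted p = 0.109) at 0.5 h. In meninges 1 of 17 was lower at 24 h against control, Atp6v0c (-0.34 ± 0.08, adjusted p = 0.0263), a call lost in 5 of 9 fits without 1 library. Both edgeR and DESeq2 called 0 at 0.5 h against control and 0 at 24 h against 0.5 h, with 1 at an unadjusted p under 0.05 in each.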

How the data were processed

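Poly(A) RNA from skull, meninges and brain was sequenced in 27 libraries. The deposited table holds raw read counts per gene symbol; per the submitters' processing notes the authors used HISAT2 2.1.0 and mm10, and which counting tool, annotation and strand setting were used is not stated in the labels. The non-cranial irradiation named in the design text was not analysed here.

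From these counts, edgeR 4.0.16 in R 4.3.3 fitted the 9 libraries of each tissue (filterByExpr, minimum count 10 and total 15, TMM scaling, robust quasi-likelihood F test), and all 27 libraries for contrasts between tissues. The SE is the log2 fold change divided by the square root of F. CPM is scaled by TMM within a tissue, and per kb of exon over all 27 libraries, with exon lengths from GENCODE M21. The fit was run on counts simulated for the skull 24 h comparison alone, with edgeR's own dispersions and a fixed fold change. Such counts follow the model, so they cannot show whether it suits the real libraries. DESeq2 1.42.0, RLE scaling, no filter, a replicate block, only the groups compared and each library left out were alternatives.

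The members, the 7 pathway lists and the marker lists were chosen with earlier results of these data known. All members are described. Of each list, up to 3 called genes per direction with the smallest p are named, or the 2 with the smallest p where none was called, except 2 uncalled effectors in meninges at 0.5 h (Nfatc1, Plekhm1) and V-ATPase subunits there. A gene of the signalling list is not reported here by name. Nfatc1 levels, Csf1 in skull and the other per-library levels outside the members were picked after their values were seen. Likeness is the Pearson r of log2(CPM + 0.5) with the mean centred profile of the tested osteoclast genes, over genes of at least 5 CPM. Within a tissue, same-numbered replicates of different treatments did not deviate together, so numbers were not treated as pairs. Whether same-numbered libraries of different tissues came from the same mice is not stated in the labels and was not checked. Contrasts between tissues treated all libraries as independent.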

Additional observations from a re-analysis of the deposited data

How the results depend on the processing

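Of 1678 alternative values of the members' log2 fold changes, 1669 stayed on the same side of the threshold, 6 lost a call, 3 gained one and 0 with a call reversed. Among the 1669, 106 values without a call in either fit took the other sign. Beside those given for Tnfsf11, Atp6v0d2 and Ctsk, the call of Calcr in control skull against control brain was lost without brain control replicate 3 (1.43, edgeR adjusted p = 0.108) or skull control replicate 3 (1.63, adjusted p = 0.0699). The members called numbered 1 to 2 at 24 h against control, 0 to 1 at 0.5 h against control and 1 to 2 at 24 h against 0.5 h in skull when 1 library was left out, 2 at 24 h against 0.5 h in skull with only the groups compared, and 1 at 24 h against control in meninges with DESeq2. In tests of all genes, leaving out 1 library gave 2223 to 3667 calls in skull at 24 h against control (3649 with all; lowest without 24 h replicate 1), 112 to 869 at 0.5 h (854; lowest without 0.5 h replicate 2) and 1428 to 3313 at 24 h against 0.5 h (2811; lowest without 24 h replicate 1). In meninges it gave 727 to 1376 (1561; lowest without control replicate 2), 17 to 172 (162; lowest without 0.5 h replicate 2) and 73 to 476 (434; lowest without 0.5 h replicate 1), and in brain 153 to 437 (477; lowest without control replicate 1), 0 to 9 (1) and 7 to 91 (40; lowest without 0.5 h replicate 1). For the change in skull minus that in meninges it gave 77 to 153 at 24 h (136; lowest without skull 24 h replicate 1) and 1 to 5 at 0.5 h (2). With DESeq2 the calls were 1536 at 0.5 h against control in skull, 606 at 0.5 h against control and 1039 at 24 h against 0.5 h in meninges, 877, 15 and 228 in brain, and 416 and 21 for skull minus meninges. Without a filter they were 261 at 0.5 h against control in meninges and 1214, 100 and 438 in brain. With only the groups compared they were 530 at 0.5 h against control in skull, 902 at 24 h against control in meninges, 301 at 24 h against control and 25 at 24 h against 0.5 h in brain, and 33 and 1 for skull minus meninges. With a replicate block within each tissue, although the labels do not say that the numbers pair libraries, they were 560 at 0.5 h against control in skull, 1030, 67 and 241 in meninges, and 1 for skull minus meninges at 0.5 h. The block left the difference in log2 ratio of Tnfsf11 to Tnfrsf11b at -2.01 in skull (exact sign-flip p = 0.25, the smallest it allows) and -0.47 in meninges. The causes of these shifts were not tested. Low counts limit Calcr in meninges, at 1 to 17 reads per library, and most osteoclast genes in brain.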
